A study of Homo sapiens with 12 samples.

Results

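Splicing factor transcripts of the SRSF, SF3A/SF3B, SNRP and HNRNP families, with U2AF1, U2AF2, SF1, PTBP1, PTBP2, TRA2A and TRA2B, were examined in the cytoplasmic RNA of U2OS cells, a human osteosarcoma line. The members were all genes whose probe accession maps in RefSeq to one of these names, and the pseudogenes HNRNPKP3 and SNRPD2P2 were left out. This gave 62 genes on 99 probes, of 27522 gene names on 34127 probes. Among them were 12 SRSF, 9 SF3, 12 SNRP and 22 HNRNP genes and the 7 named singly. Of the 62, 61 passed the filter on dim probes and were tested, of 20821 genes tested in all, and each of the 61 was well above background on all 12 arrays. SRSF12 was not well above background on any array and was not tested.

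Cells were transfected with 20 nM of control siRNA or of siRNA against DBP5 (DDX19B, the DEAD-box helicase of mRNA export), GLE1 (its activator at the nuclear pore) or IPPK (the kinase that makes IP6, the cofactor of GLE1), with 3 arrays for each siRNA. RNA was taken from the detergent-soluble cytoplasmic fraction, 48 h after transfection according to the methods, which call the 3 arrays of a group independent experiments. All groups were U2OS cells with transfected siRNA. The methods list a single siRNA against DBP5, and for control, GLE1 and IPPK the sources do not say which of the listed siRNAs was used on the arrays, so an effect of the siRNA itself and an effect of its target cannot be told apart. The question was how the loss of each export factor changed the cytoplasmic level of these transcripts.

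Splicing removes introns from pre-mRNA in the nucleus. The spliceosome is built from small nuclear ribonucleoproteins, in which a ring of Sm proteins (SNRPB, the SNRPD proteins, SNRPE, SNRPF and SNRPG) holds the U1, U2, U4 and U5 RNAs. SF1 and U2AF mark the branch point and the 3′ splice site, and the SF3A and SF3B complexes of U2 then hold the branch point. SR proteins (SRSF) bind exons through RNA recognition motifs and recruit the spliceosome, TRA2 proteins act likewise, and HNRNP proteins and PTBP coat pre-mRNA and often repress exons. Several members, SRSF3, SRSF7 and HNRNPA1 among them, shuttle between nucleus and cytoplasm, and SR proteins bind the mRNA export receptor. Many SR and HNRNP genes make alternative transcripts from ultraconserved exons that are degraded.

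Promoter sequence was available from RefSeq (GRCh38.p14) for 57 of the 62 members, from 250 bases before to 50 bases after the start. The stretch of 150 bases before the start is shown for SNRPF, SNRPB and SNRPA1, the SNRP genes with the largest falls under GLE1 knock-down, and for SF3B6 and SRSF9, the members with the largest rises in each knock-down. They were chosen by these changes, after the values were seen. Capitals mark CCGGAAG (the letters bound by ETS factors) and CCAAT (bound by NF-Y), on either strand. The stretch of SNRPB lies at chr20:2470790-2470939 (- strand), SNRPA1 at chr15:101295249-101295398 (- strand), SNRPF at chr12:95858802-95858951 (+ strand), SF3B6 at chr2:24076327-24076476 (- strand) and SRSF9 at chr12:120469749-120469898 (- strand). Each sequence runs 5′ to 3′ on the strand of its gene.
SNRPB: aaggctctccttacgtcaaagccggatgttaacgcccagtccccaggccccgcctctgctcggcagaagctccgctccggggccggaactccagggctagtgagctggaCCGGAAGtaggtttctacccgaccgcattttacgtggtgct
SNRPA1: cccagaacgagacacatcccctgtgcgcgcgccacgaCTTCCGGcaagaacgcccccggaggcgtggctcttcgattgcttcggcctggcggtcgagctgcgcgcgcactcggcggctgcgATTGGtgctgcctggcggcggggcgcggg
SNRPF: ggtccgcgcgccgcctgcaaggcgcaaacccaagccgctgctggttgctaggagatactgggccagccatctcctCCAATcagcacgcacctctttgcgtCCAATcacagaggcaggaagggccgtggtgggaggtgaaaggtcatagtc
SF3B6: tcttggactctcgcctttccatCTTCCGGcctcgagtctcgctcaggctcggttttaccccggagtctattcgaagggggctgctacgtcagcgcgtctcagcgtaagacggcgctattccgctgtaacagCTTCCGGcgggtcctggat
SRSF9: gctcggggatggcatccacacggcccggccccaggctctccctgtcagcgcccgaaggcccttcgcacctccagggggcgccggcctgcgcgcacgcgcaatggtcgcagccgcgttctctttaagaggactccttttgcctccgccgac

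CCGGAAG was in the window of 19 of the 57 members (33.3%), against 16.6% of 12857 tested genes with a window and 10.67% of all 27305 windows. By the GLE1 comparison described below, 14 of 33 members that were lower held it, 3 of 10 that were higher and 2 of 13 that were not past the test. Among all tested genes it stood in 20.1% of those lower and 14.1% of those higher under GLE1 knock-down. The printed stretches show both directions with the same letters, since SNRPB and SF3B6 each hold CCGGAAG and moved oppositely, and the stretch of SRSF9 holds neither motif. GGGCGG (bound by SP1) was in 68.4% of member windows against 64.4% of tested genes, CCAAT in 40.4% against 36.5% and TATAAA in 10.5% against 7.68%. Of the other motifs searched on both strands, GCGCATGCG (NRF1) and AAGATGGCG (YY1) were each in 2 member windows, TTTGGCGC or TTTCGCGC (E2F) in 1 and TGACGTCA (CRE) in 0 of 57. None of these motifs holds the letters of another, and GGGCGG copies can overlap each other. Each match is a description of letters in the window.

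The targeted transcript was at 0.0643 of control in DBP5 knocked-down cells, 0.102 in GLE1 knocked-down cells and 0.187 in IPPK knocked-down cells, and lower on each array of that knock-down than on any control array. The other targets were also lower in each knock-down, on all 3 arrays below control. DDX19B was at 0.49 of control in GLE1 and 0.874 in IPPK knocked-down cells. The GLE1 transcript was at 0.783 in DBP5 and 0.717 in IPPK knocked-down cells. The IPPK transcript was at 0.42 in DBP5 and 0.821 in GLE1 knocked-down cells. Between 70.9% and 77.7% of probes were well above background per array, with 70.9% to 73.8% in IPPK knocked-down cells and 73.4% to 77.7% in the other groups. All 10 mesenchymal and osteoblast lineage markers were detected in control cells and 9 in each knock-down, COL1A2 being the one missing. The log2 of the summed intensity of 8 epithelial markers was 12.38 to 12.41 in control cells, 12.11 to 12.42 under DBP5 knock-down, 14.64 to 14.70 under GLE1 knock-down and 11.06 to 11.55 under IPPK knock-down, with CDH1, KRT5 and GRHL2 not detected in control cells and the rise under GLE1 knock-down carried by CLDN4 (11.14 in control, 14.39 under GLE1 knock-down). The summed level of 3 RNAs known to stay in the nucleus (MALAT1, KCNQ1OT1 and MEG3), all detected in every group, was 12.80 to 12.83 in control cells, 13.17 to 13.36 under DBP5, 13.51 to 13.53 under GLE1 and 12.93 to 13.01 under IPPK knock-down. KCNQ1OT1 rose in GLE1 knocked-down cells by 0.84 (log2) and MEG3 by 0.31, while MALAT1 did not pass the test and was at 8.53 in control and 8.20 in GLE1 knocked-down cells. The part of these shifts in the results was not tested.

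GLE1 knock-down lowered most of these transcripts. Of the 61 tested, 37 were lower and 10 higher than control (limma, Benjamini-Hochberg adjusted p under 0.05 over all genes), where 31.5% of all tested genes were lower and 30.6% higher. After DBP5 knock-down 20 were lower and 12 higher, against 27.5% and 26.7% of all genes, and under IPPK knock-down 19 were lower and 16 higher, against 28% and 27.3%. The share of members lower was thus 60.7% under GLE1 knock-down, 32.8% under DBP5 knock-down and 31.1% under IPPK knock-down. The median log2 fold change was -0.30 under GLE1 knock-down (0.01 over all genes), -0.10 under DBP5 knock-down (-0.02) and -0.05 under IPPK knock-down (-0.03). At a change of at least 1.5-fold, GLE1 knock-down lowered 19 and raised 7 members (17.7% and 16% of all genes), DBP5 knock-down 4 and 7 (12.1% and 12.6%) and IPPK knock-down 2 and 9 (12.6% and 13.2%). With a paired test on the replicate numbers, after the same adjustment, the members lower and higher were 28 and 10 with GLE1 siRNA (24.0% and 23.2% of all genes by that test), 5 and 6 with DBP5 siRNA (12.5% and 11.7%) and 11 and 14 with IPPK siRNA (17.7% and 18.9%). The 3 comparisons share the control arrays. Values are relative to the other transcripts of the array, and fewer cells holding a transcript and less RNA per cell cannot be told apart.

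**Figure D1:**
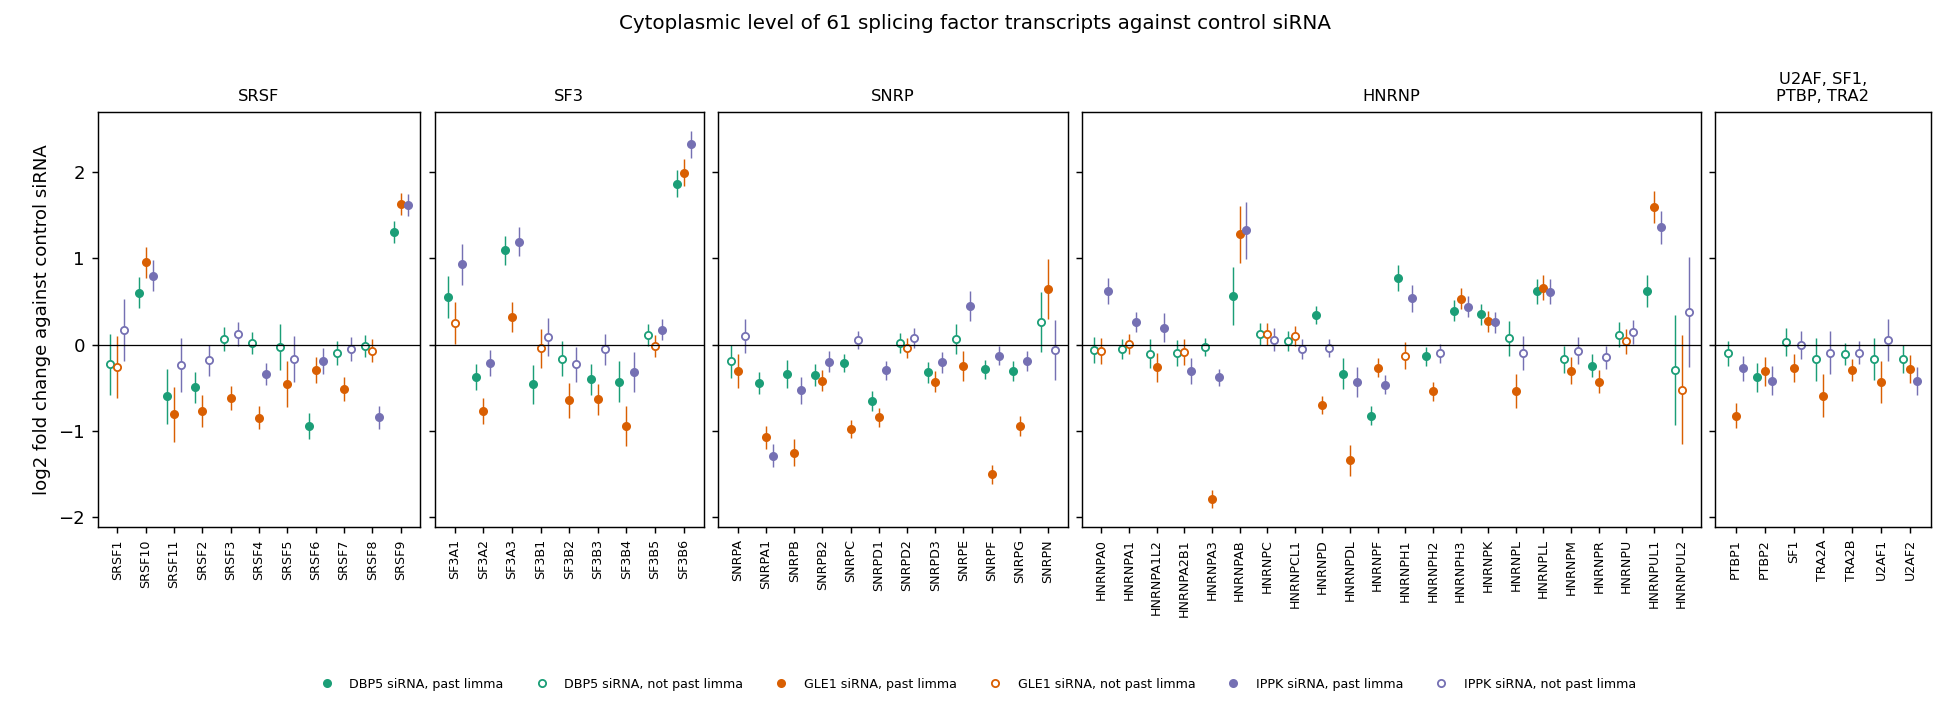
Each point is the log2 fold change of 1 of the 61 tested splicing factor genes against control siRNA (vertical axis, with 95% confidence interval), by family and knock-down (3 arrays each); filled points passed limma. After GLE1 knock-down (orange) 37 points lie below 0 and past the test, while SF3B6 and SRSF9 lie above 1 in all 3 knock-downs.

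By family, the fall under GLE1 knock-down was most frequent in the SNRP genes (10 of 12 lower, 1 higher, median log2 fold change -0.63) and in the group of U2AF, SF1, PTBP and TRA2 (7 of 7 lower, median -0.31), followed by the SRSF genes (7 of 11 lower, 2 higher, median -0.45), where 31.5% of all genes were lower and 30.6% higher. The SF3 genes (4 of 9 lower, 2 higher, median -0.04) and HNRNP genes (9 of 22 lower, 5 higher, median -0.11) moved both ways. After DBP5 knock-down 8 of 12 SNRP genes were lower and 0 higher (median -0.30), against 27.5% and 26.7% of all genes, and 7 of 22 HNRNP genes (31.8%) were higher and 4 lower, near the shares of all genes. After IPPK knock-down 7 of 12 SNRP genes were lower and 1 higher (median -0.16), and 9 of 22 HNRNP genes were higher and 4 lower (median 0.10), against 28% of all genes lower and 27.3% higher. Differences between families were not tested. The counts by family are those of limma, and the paired test, which left fewer members lower in each knock-down, was not counted by family. The SNRPE and SNRPN genes were the exceptions among the SNRP genes that were higher in a knock-down.

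**Figure D2:**
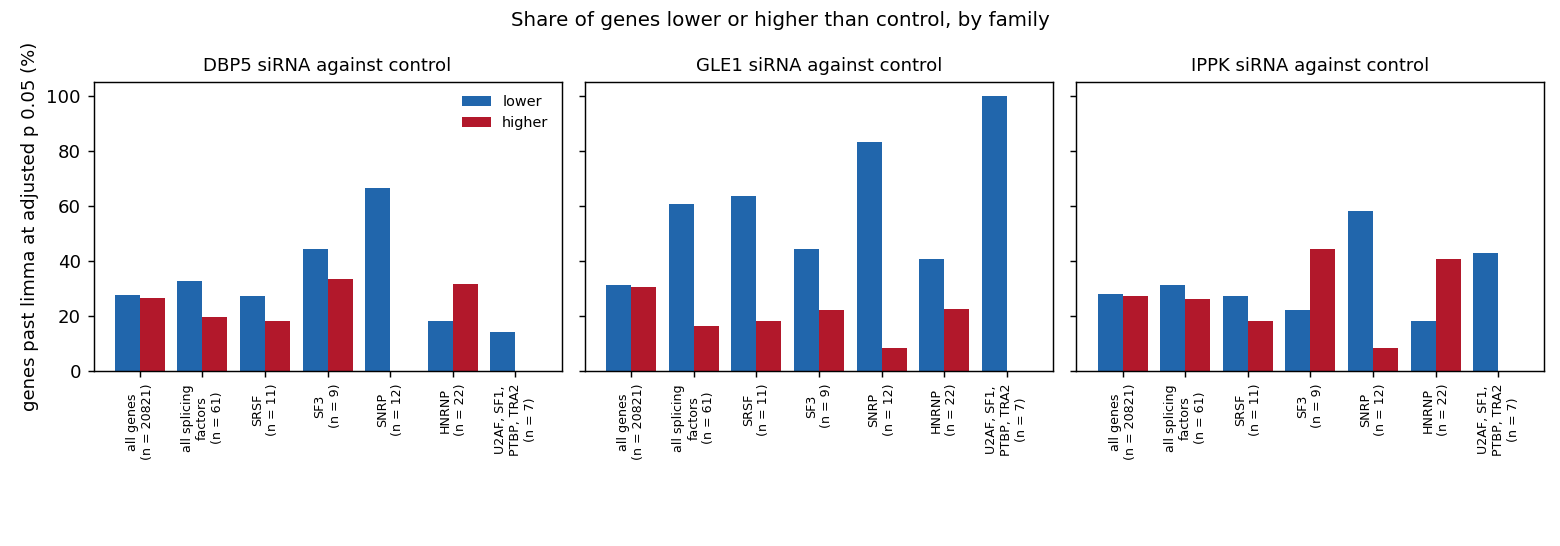
Bars give the percent of tested genes lower (blue) or higher (red) than control in limma, for all 20821 genes, the 61 splicing factors and each family (horizontal axis, with n), in each knock-down. The SNRP bar reaches 83.3% lower and the bar of U2AF, SF1, PTBP and TRA2 100% lower under GLE1 knock-down, against 31.5% of all genes.

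The Sm proteins form the ring around each spliceosomal RNA. SNRPF (NM_003095) had normalized log2 intensities of 15.39, 15.46 and 15.44 in control cells, 15.17, 15.17 and 15.09 under DBP5 knock-down, 13.92, 13.96 and 13.91 under GLE1 knock-down and 15.23, 15.36 and 15.32 under IPPK knock-down. The GLE1 arrays were far below the arrays of the other 3 groups, and no group overlapped control. SNRPF thus fell to 0.353 ± 0.00698 of control under GLE1 knock-down (ratio ± SD of 3 arrays, limma adjusted p = 2.6e-09) and to 0.82 ± 0.0271 under DBP5 knock-down (adjusted p = 0.00063). After IPPK knock-down its log2 fold change was -0.13 with an adjusted p of 0.0495, and this call was lost when any control array, IPPK array 1 or 3, DBP5 array 2 or any GLE1 array was left out (adjusted p up to 0.166).

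SNRPB, the Sm protein B, was at 14.53, 14.39 and 14.51 in control cells, 13.99, 14.26 and 14.18 under DBP5, 13.24, 13.18 and 13.27 under GLE1 and 13.90, 13.95 and 13.999 under IPPK knock-down. All 9 knock-down arrays were below control, the GLE1 arrays lowest. The level was 0.42 ± 0.013 of control under GLE1 (adjusted p = 1e-07), 0.791 ± 0.0734 under DBP5 (limma adjusted p = 0.0022) and 0.692 ± 0.0236 under IPPK knock-down (limma adjusted p = 9.9e-05). SNRPG was 17.25, 17.35 and 17.24 in control and 16.35, 16.33 and 16.35 under GLE1 knock-down, 0.521 ± 0.00367 of control (limma adjusted p = 7.2e-08). SNRPD1 fell in each knock-down, to 0.636 ± 0.0117 under DBP5, 0.558 ± 0.015 under GLE1 and 0.815 ± 0.016 under IPPK knock-down, and its fall under DBP5 knock-down was the largest of the SNRP genes there. SNRPD3 also fell in each knock-down (0.802, 0.743 and 0.868 of control), whereas SNRPD2 did not pass the test in any (1.01, 0.973 and 1.05, all limma adjusted p of at least 0.226). SNRPE, the remaining ring protein, was at 14.81, 14.75 and 14.57 in control, 14.51, 14.44 and 14.43 under GLE1 and 15.23, 15.12 and 15.12 under IPPK knock-down, which placed GLE1 arrays below and IPPK arrays above control. Its log2 fold change was -0.25 under GLE1 (limma adjusted p = 0.0171, 0.054 to 0.070 without control array 1 or 2 or GLE1 array 3) and 0.45 under IPPK knock-down (limma adjusted p = 0.00062). Of the 7 ring genes, 6 were lower under GLE1 knock-down, 5 under DBP5 knock-down and 5, SNRPF included, under IPPK knock-down, where 31.5%, 27.5% and 28% of all genes were lower.

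SNRPC, a U1 protein that helps hold the 5′ splice site, was at 16.50, 16.41 and 16.42 in control, 16.24, 16.27 and 16.17 under DBP5, 15.47, 15.43 and 15.50 under GLE1 and 16.48, 16.50 and 16.51 under IPPK knock-down. The GLE1 arrays were lowest by a wide margin and the IPPK arrays overlapped control. SNRPC was 0.508 ± 0.0131 of control under GLE1 knock-down (limma adjusted p = 2.9e-08) and 0.861 ± 0.0297 under DBP5 knock-down (limma adjusted p = 0.00256), whereas the IPPK ratio of 1.04 ± 0.00918 did not pass the test. SNRPA, the U1 protein that binds a stem loop of U1 RNA, was lower under GLE1 knock-down alone among the comparisons with control (0.808 ± 0.105, limma adjusted p = 0.0101). SNRPA1, its counterpart in U2, was at 13.57, 13.57 and 13.49 in control, 13.08, 13.21 and 13.02 under DBP5, 12.45, 12.48 and 12.48 under GLE1 and 12.19, 12.28 and 12.30 under IPPK knock-down. Here the IPPK arrays were the lowest, and no groups overlapped. SNRPA1 was 0.737 ± 0.051, 0.475 ± 0.00413 and 0.41 ± 0.0168 of control (limma adjusted p = 8.5e-05, 6.7e-08 and 3.3e-08), and the IPPK arrays were below the GLE1 arrays as well (GLE1 minus IPPK log2 0.21, limma adjusted p = 0.0094). SNRPN, an imprinted relative of SNRPB, was 1.56 ± 0.0868 of control under GLE1 knock-down (limma adjusted p = 0.00432) and did not pass the test against control in the other knock-downs.

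**Figure D3:**
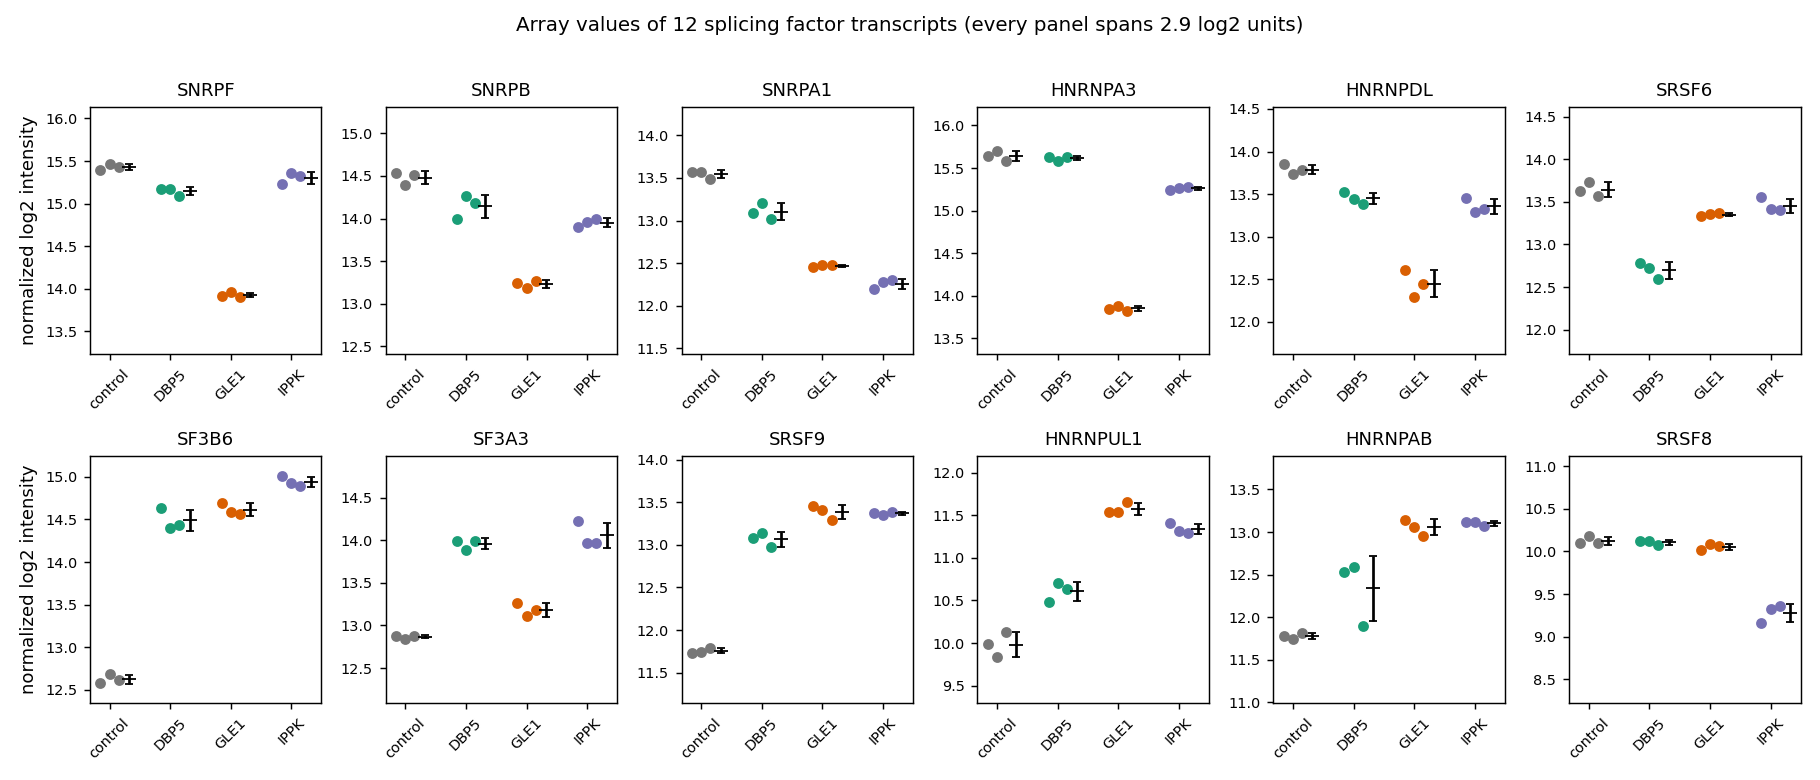
Each panel shows 1 gene, with the normalized log2 intensity (vertical axis, the same span in each panel) of the 3 arrays of each siRNA as points and the mean ± SD as a black bar. SNRPF at 13.91 to 13.96 and HNRNPA3 at 13.83 to 13.88 under GLE1 knock-down lie below every other array, SRSF6 is lowest under DBP5 knock-down, SRSF8 is lowest under IPPK knock-down, and SF3B6 and SRSF9 lie above control on all 9 knock-down arrays.

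Among the SR proteins, SRSF9, a short SR protein, was higher in every knock-down. It was at 11.73, 11.75 and 11.79 in control, 13.09, 13.14 and 12.97 under DBP5, 13.45, 13.41 and 13.30 under GLE1 and 13.37, 13.35 and 13.39 under IPPK knock-down. All 9 knock-down arrays were more than 1 log2 unit above control. The level was 2.48 ± 0.143, 3.1 ± 0.173 and 3.06 ± 0.0372 times control (limma adjusted p = 3.8e-08, 3.7e-09 and 7.6e-09). It is measured by 1 probe.

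On their brightest probes, the other classical SR proteins were lower or near control, with an opposed probe of SRSF7 given below. SRSF10, also given below, was higher in each knock-down on its brightest probe. SRSF4 was at 13.27, 13.34 and 13.28 in control, 13.29, 13.37 and 13.27 under DBP5, 12.38, 12.48 and 12.49 under GLE1 and 12.85, 13.01 and 12.997 under IPPK knock-down. The DBP5 arrays overlapped control and the GLE1 arrays were lowest, at 0.557 ± 0.0234 of control (limma adjusted p = 4.5e-07). SRSF3, which with SRSF7 is known as an adaptor for the export receptor, was at 15.29, 15.40 and 15.29 in control and 14.74, 14.72 and 14.68 under GLE1 knock-down, 0.653 ± 0.0141 of control (limma adjusted p = 8.2e-06), while its ratios under DBP5 and IPPK knock-down were 1.05 and 1.09 and did not pass the test. The other probe of SRSF3 was lower in all 3 knock-downs, at 0.77 of control with DBP5 siRNA, 0.584 with GLE1 siRNA and 0.776 with IPPK siRNA (limma adjusted p = 0.0012, 4.2e-06 and 0.0014). SRSF2, which keeps mostly to the nucleus, was lower under GLE1 (0.587 ± 0.0365) and DBP5 knock-down (0.709 ± 0.0614). SRSF11 was likewise lower under GLE1 (0.571 ± 0.0519) and DBP5 knock-down (0.66 ± 0.122), and SRSF5 under GLE1 knock-down (0.73 ± 0.0434). On its other probe SRSF2 was at 0.851 of control with DBP5 siRNA, 0.847 with GLE1 siRNA and 0.751 with IPPK siRNA (limma adjusted p = 0.0019, 0.0013 and 3.4e-05). There IPPK was lowest (GLE1 minus IPPK log2 0.17, limma adjusted p = 0.0097), while GLE1 was lowest on the brightest probe. SRSF11 was lower with IPPK siRNA on 1 of its other probes (0.714, limma adjusted p = 6.6e-05). SRSF1, the prototype of the family, did not pass the test in any knock-down, with ratios of 0.853 ± 0.0915, 0.837 ± 0.184 and 1.12 ± 0.0408 (limma adjusted p of at least 0.195), and its arrays overlapped between each knock-down and control.

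2 SRSF genes had their largest change in another knock-down. SRSF6 was at 13.62, 13.74 and 13.57 in control, 12.78, 12.72 and 12.59 under DBP5, 13.33, 13.35 and 13.37 under GLE1 and 13.55, 13.41 and 13.40 under IPPK knock-down. The DBP5 arrays were lowest, at 0.52 ± 0.0352 of control (limma adjusted p = 9.6e-07), and lower than both other knock-downs (GLE1 minus DBP5 log2 0.65, limma adjusted p = 1.4e-05; DBP5 minus IPPK -0.76, limma adjusted p = 7e-06). The second probe of SRSF6 gave no such difference from IPPK, as it was at 0.597 of control with DBP5 siRNA and 0.64 with IPPK siRNA (DBP5 minus IPPK log2 -0.10, limma adjusted p = 0.328). On the brightest probe the fall under IPPK knock-down (0.879 ± 0.0508, limma adjusted p = 0.0379) was lost without control array 1 or 2, GLE1 array 2 or 3, or IPPK array 2 or 3 (adjusted p 0.052 to 0.133). SRSF8, an intronless relative of SRSF2, was at 10.10, 10.18 and 10.10 in control, 10.12, 10.13 and 10.07 under DBP5, 10.01, 10.09 and 10.06 under GLE1 and 9.16, 9.32 and 9.36 under IPPK knock-down. Only the IPPK arrays stood apart in the test, at 0.557 ± 0.0407 of control (limma adjusted p = 7.3e-07), and they were also lower than GLE1 (log2 0.78 for GLE1 minus IPPK, limma adjusted p = 1.1e-06) and DBP5 arrays (0.83, limma adjusted p = 1.5e-06).

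Among the SF3 genes, SF3B6, the SF3B subunit that sits at the branch point adenosine, had the largest change of all members. It was at 12.58, 12.69 and 12.61 in control, 14.63, 14.41 and 14.44 under DBP5, 14.70, 14.59 and 14.56 under GLE1 and 15.01, 14.93 and 14.90 under IPPK knock-down. No knock-down array was within 1 log2 unit of control, and IPPK arrays were highest. The level was 3.64 ± 0.313, 3.97 ± 0.2 and 4.99 ± 0.203 times control (limma adjusted p = 1.3e-08, 3.4e-09 and 2.8e-09), and higher under IPPK than under GLE1 (GLE1 minus IPPK log2 -0.33, limma adjusted p = 0.0019) or DBP5 knock-down (DBP5 minus IPPK -0.45, limma adjusted p = 0.00032). Like SRSF9, it rests on 1 probe.

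SF3A3, a subunit of the SF3A heterotrimer, was at 12.88, 12.85 and 12.87 in control, 13.996, 13.88 and 13.99 under DBP5, 13.27, 13.11 and 13.18 under GLE1 and 14.23, 13.97 and 13.97 under IPPK knock-down. Every knock-down array exceeded control, with GLE1 arrays between control and the other 2 groups. The ratio was 2.13 ± 0.0932 under DBP5, 1.25 ± 0.071 under GLE1 and 2.28 ± 0.245 under IPPK knock-down, and the GLE1 level was below both others (9.8e-06 for DBP5 and 3.1e-06 for IPPK, limma adjusted p). SF3A1, its scaffold, was higher under DBP5 (1.47 ± 0.23) and IPPK knock-down (1.9 ± 0.00912), with a ratio of 1.19 ± 0.0194 under GLE1 knock-down that did not pass the test (limma adjusted p = 0.071). SF3A2 went the other way, at 0.774 ± 0.0389, 0.589 ± 0.0217 and 0.863 ± 0.0592 of control, all past the test, the last not without control array 1 or 3 or IPPK array 2 or 3 (limma adjusted p 0.063 to 0.086). SF3A subunits therefore differed in direction within the same cells, each measured by 1 probe.

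Of the larger SF3B subunits, SF3B4 was at 8.67, 8.66 and 8.71 in control and 7.76, 7.69 and 7.77 under GLE1 knock-down. It was 0.521 ± 0.016 of control there (limma adjusted p = 1.8e-05), 0.743 ± 0.133 under DBP5 and 0.803 ± 0.0466 under IPPK knock-down, where the call was lost without any one control array or IPPK array 1 (limma adjusted p 0.052 to 0.084). SF3B2 (0.639 ± 0.00089) and SF3B3 (0.644 ± 0.0255) were also lower under GLE1 knock-down, SF3B3 also with DBP5 siRNA (0.758 ± 0.0809, limma adjusted p = 0.00167). SF3B1, the large subunit mutated in blood and eye tumours, was lower under DBP5 knock-down alone (0.727 ± 0.11, limma adjusted p = 0.00261), with ratios of 0.97 ± 0.0242 under GLE1 and 1.06 ± 0.0557 under IPPK knock-down. SF3B5 was near control, at 1.08, 0.988 and 1.13, of which only the IPPK ratio passed the test (limma adjusted p = 0.0231).

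HNRNP genes split. HNRNPA3, an abundant A/B type hnRNP, was at 15.64, 15.71 and 15.58 in control, 15.63, 15.59 and 15.63 under DBP5, 13.85, 13.88 and 13.83 under GLE1 and 15.25, 15.27 and 15.28 under IPPK knock-down. DBP5 arrays overlapped control while GLE1 arrays were far below all others. The ratio under GLE1 knock-down was 0.29 ± 0.00591 (limma adjusted p = 5.2e-10), the largest fall among the members on the brightest probe, although its probes differed as given below. HNRNPDL, related to the AU-rich element binding protein HNRNPD, was at 13.85, 13.74 and 13.78 in control and 12.60, 12.30 and 12.45 under GLE1 knock-down, 0.395 ± 0.0425 of control (limma adjusted p = 1.5e-07). It was also lower under DBP5 (0.791 ± 0.0366) and IPPK knock-down (0.741 ± 0.0444) on this probe. HNRNPD itself was at 15.60, 15.57 and 15.51 in control, 15.89, 15.97 and 15.87 under DBP5, 14.85, 14.86 and 14.88 under GLE1 and 15.47, 15.56 and 15.53 under IPPK knock-down. DBP5 arrays were above and GLE1 arrays below control, with ratios of 1.27 ± 0.0472 and 0.616 ± 0.00746 (limma adjusted p = 0.00012 and 4e-07).

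Among the rising HNRNP genes, HNRNPUL1 rose most with GLE1 and with IPPK siRNA, and HNRNPH1, given below, with DBP5 siRNA. HNRNPUL1 is a relative of HNRNPU that takes part in DNA end resection. It was at 9.98, 9.83 and 10.13 in control, 10.48, 10.701 and 10.63 under DBP5, 11.54, 11.53 and 11.66 under GLE1 and 11.41, 11.31 and 11.29 under IPPK knock-down. All knock-down arrays were above control, those of DBP5 least. The ratios were 1.54 ± 0.119, 3.02 ± 0.146 and 2.56 ± 0.113 (limma adjusted p = 0.0001, 5.7e-08 and 3.1e-07). HNRNPAB was at 11.78, 11.74 and 11.81 in control, 12.53, 12.59 and 11.90 under DBP5, 13.14, 13.06 and 12.96 under GLE1 and 13.11, 13.12 and 13.07 under IPPK knock-down. The third DBP5 array was close to control and the other two were not, so the DBP5 ratio of 1.48 ± 0.368 had a wide spread, while GLE1 and IPPK ratios were 2.42 ± 0.155 and 2.5 ± 0.0472. HNRNPH3, which binds G-rich runs, was higher in each knock-down (1.31, 1.45 and 1.35 times control, and 1.6, 2.83 and 1.88 on its other probe), as was HNRNPK, a KH domain protein (1.27, 1.21 and 1.19, on its brightest probe).

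Several HNRNP genes had a change in DBP5 or IPPK knocked-down cells. HNRNPF was at 14.11, 14.09 and 14.23 in control and 13.34, 13.29 and 13.33 under DBP5 knock-down, the lowest of the groups, at 0.565 ± 0.0112 of control (limma adjusted p = 3.4e-07), with ratios of 0.832 ± 0.0268 under GLE1 and 0.725 ± 0.0143 under IPPK knock-down. Its relative HNRNPH1 went up under DBP5 (1.7 ± 0.112, limma adjusted p = 4.8e-06) and also IPPK knock-down (1.45 ± 0.111, limma adjusted p = 6.6e-05), but was at 0.916 ± 0.0235 under GLE1 knock-down, which did not pass the test (limma adjusted p = 0.134). Members of one G-run binding subfamily thus moved apart, HNRNPF and HNRNPH1 each on 1 probe. HNRNPA0 was at 9.71, 9.87 and 9.66 in control and 10.33, 10.38 and 10.40 under IPPK knock-down, 1.54 ± 0.0382 times control (limma adjusted p = 2.1e-05), and did not pass the test under DBP5 or GLE1 knock-down. HNRNPA1, the best known shuttling hnRNP, was 1.2 ± 0.0467 times control under IPPK knock-down and at 0.968 and 1.01 otherwise, and its other probe passed the test in none. HNRNPA2B1 was 0.809 ± 0.0322 under IPPK knock-down, and its other probe was lower there (0.783) and with GLE1 siRNA (0.889, limma adjusted p = 0.0394). HNRNPA1L2 is a near-identical copy of HNRNPA1, as is HNRNPCL1 of HNRNPC, so signal may be shared within these pairs. HNRNPC and HNRNPU, both abundant nuclear proteins, did not pass the test in any knock-down on their brightest probe, with 95% intervals of the log2 fold change under GLE1 knock-down of -0.01 to 0.25 for HNRNPC and -0.10 to 0.18 for HNRNPU. Another probe of HNRNPC was lower with IPPK siRNA (0.71 of control, limma adjusted p = 0.00012) and with DBP5 siRNA (0.866, limma adjusted p = 0.0252), and the third passed in none.

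On their brightest probes, the 7 genes of 3′ splice site recognition and exon regulation fell under GLE1 knock-down, although a second probe of TRA2B rose, as given below. PTBP1, the polypyrimidine tract binding repressor, was at 9.96, 10.01 and 10.10 in control, 9.86, 9.99 and 9.90 under DBP5, 9.32, 9.15 and 9.12 under GLE1 and 9.72, 9.74 and 9.78 under IPPK knock-down. DBP5 arrays overlapped control and GLE1 arrays were lowest, at 0.564 ± 0.0433 of control (limma adjusted p = 1.1e-06), while the IPPK ratio of 0.828 ± 0.0149 (limma adjusted p = 0.00446) was not past the test with the authors' processed values (limma adjusted p = 0.083) or another background correction (limma adjusted p = 0.068). TRA2A, an exon enhancer protein, was 0.664 ± 0.0144 of control under GLE1 knock-down (limma adjusted p = 0.00083). U2AF1 and U2AF2, the pair that binds the 3′ splice site, were 0.741 ± 0.0391 and 0.821 ± 0.043 of control, SF1, the branch point binding protein, 0.829 ± 0.0424, and TRA2B 0.817 ± 0.016. PTBP2, the neuronal relative of PTBP1, was lower in each knock-down, at 0.768 ± 0.0538, 0.808 ± 0.0424 and 0.747 ± 0.0184 of control. U2AF2 was also lower under IPPK knock-down (0.745 ± 0.0307, limma adjusted p = 0.00057). After DBP5 knock-down, PTBP2 alone of the 7 passed the test on the brightest probe.

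The knock-downs were then compared with each other. GLE1 knocked-down cells had 29 members lower and 7 higher than DBP5 knocked-down cells (28% and 26.5% of all genes), and 40 lower and 7 higher than IPPK knocked-down cells (30.7% and 29.4%). DBP5 against IPPK knocked-down cells gave 19 lower and 9 higher (25.1% and 23.8%), the latter 5 without DBP5 array 2. The mean of a gene's probes gave 11 higher in GLE1 than in IPPK knocked-down cells (29.2% of all genes). The paired test gave 16 lower and 4 higher for GLE1 against DBP5 (13.4% and 12.1% of all genes by that test), 34 and 5 for GLE1 against IPPK (25.4% and 23.6%) and 4 and 4 for DBP5 against IPPK (9.95% and 9.01%). At a change of at least 1.5-fold, 14 members were lower and 3 higher with GLE1 than with DBP5 siRNA (13.6% and 11.5% of all genes), 15 lower and 2 higher with GLE1 than with IPPK siRNA (15.6% and 13.8%), and 4 lower and 2 higher with DBP5 than with IPPK siRNA (9.3% and 9.48%). In GLE1 against IPPK, 8 of 9 SF3, 9 of 12 SNRP, 6 of 11 SRSF and 12 of 22 HNRNP genes were lower. The largest of these differences were those of HNRNPA3 (GLE1 minus DBP5 log2 -1.76, GLE1 minus IPPK -1.41) and SNRPF (-1.22 and -1.37). The exceptions with a higher level under GLE1 than under DBP5 knock-down were led by HNRNPUL1 (0.97, limma adjusted p = 3.8e-06), HNRNPAB (0.71, limma adjusted p = 0.0021) and SRSF6 (0.65).

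Probes to one gene did not always give one answer, and many members, SNRPF, SNRPB, SNRPA1 and HNRNPUL1 among them, rest on 1 probe. Of 25 members with 2 or more tested probes, 7 had probes past the test in opposite directions under GLE1 knock-down, 3 under DBP5 and 4 under IPPK knock-down, and 8 in any of them. The share with opposed probes was not counted over all genes, so it is not shown to be particular to these members. SRSF10, which represses splicing when dephosphorylated, rose on its brightest probe (NM_006625: log2 0.60, 0.95 and 0.80 under DBP5, GLE1 and IPPK knock-down), whereas the probe for NM_054016 fell (-0.79, -0.83 and -0.39, limma adjusted p = 1.7e-06, 6.8e-07 and 0.00031) and that for NM_001191009 fell under GLE1 (-0.53) and IPPK knock-down (-0.21) and was at -0.04 under DBP5 knock-down. SRSF7 was lower under GLE1 knock-down on the brightest probe (NM_001195446: -0.52, limma adjusted p = 4e-05) and higher on the probe for NM_001031684 (1.40, limma adjusted p = 1.8e-08), which also rose under IPPK knock-down (1.22) and fell under DBP5 knock-down (-0.33). These are opposite calls within 1 gene, larger than the spread of the arrays.

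TRA2B fell on the probe for NM_004593 under GLE1 knock-down (-0.29) and rose on that for NM_001243879 (0.24, limma adjusted p = 0.021), which fell under DBP5 (-0.28) and IPPK knock-down (-0.56). In HNRNPA3, whose 5 probes share the accession NM_194247, 4 probes fell under GLE1 knock-down (-1.79, -1.30, -1.20 and -0.63) and 1 rose (0.72, limma adjusted p = 2.6e-05). HNRNPDL fell on the brightest probe under GLE1 knock-down (-1.34) and rose on the other (0.38, limma adjusted p = 0.00042), and its direction turned between the same probes with IPPK siRNA (-0.43 and 0.40, the latter with a limma adjusted p of 0.00035). HNRNPD fell and rose likewise under GLE1 knock-down (-0.70 and 0.23). Different probes of an accession can thus disagree, and which transcripts each probe reads is not given by the accession. HNRNPLL was higher on the brightest probe (0.66 under GLE1 knock-down) and lower on the other (-0.73). SNRPE agreed on 3 of 4 probes, higher under IPPK knock-down by 0.45, 0.31 and 0.30, and the fourth was lower (-0.28, limma adjusted p = 0.0096). Without opposite calls, SRSF6 fell under DBP5 knock-down on both probes (-0.94 on NM_006275 and -0.74 on the non-coding record NR_034009), with IPPK siRNA by -0.19 and -0.64, and with GLE1 siRNA on the first alone (-0.29 and 0.10). A second probe of HNRNPU rose under DBP5 (0.68) and IPPK knock-down (1.21) and fell under GLE1 knock-down (-0.19), where the brightest probe passed in none. HNRNPK was higher on its brightest probe and at -0.35, -0.52 and -0.38 on the other, which did not pass the test (limma adjusted p = 0.23, 0.077 and 0.19).

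**Figure D4:**
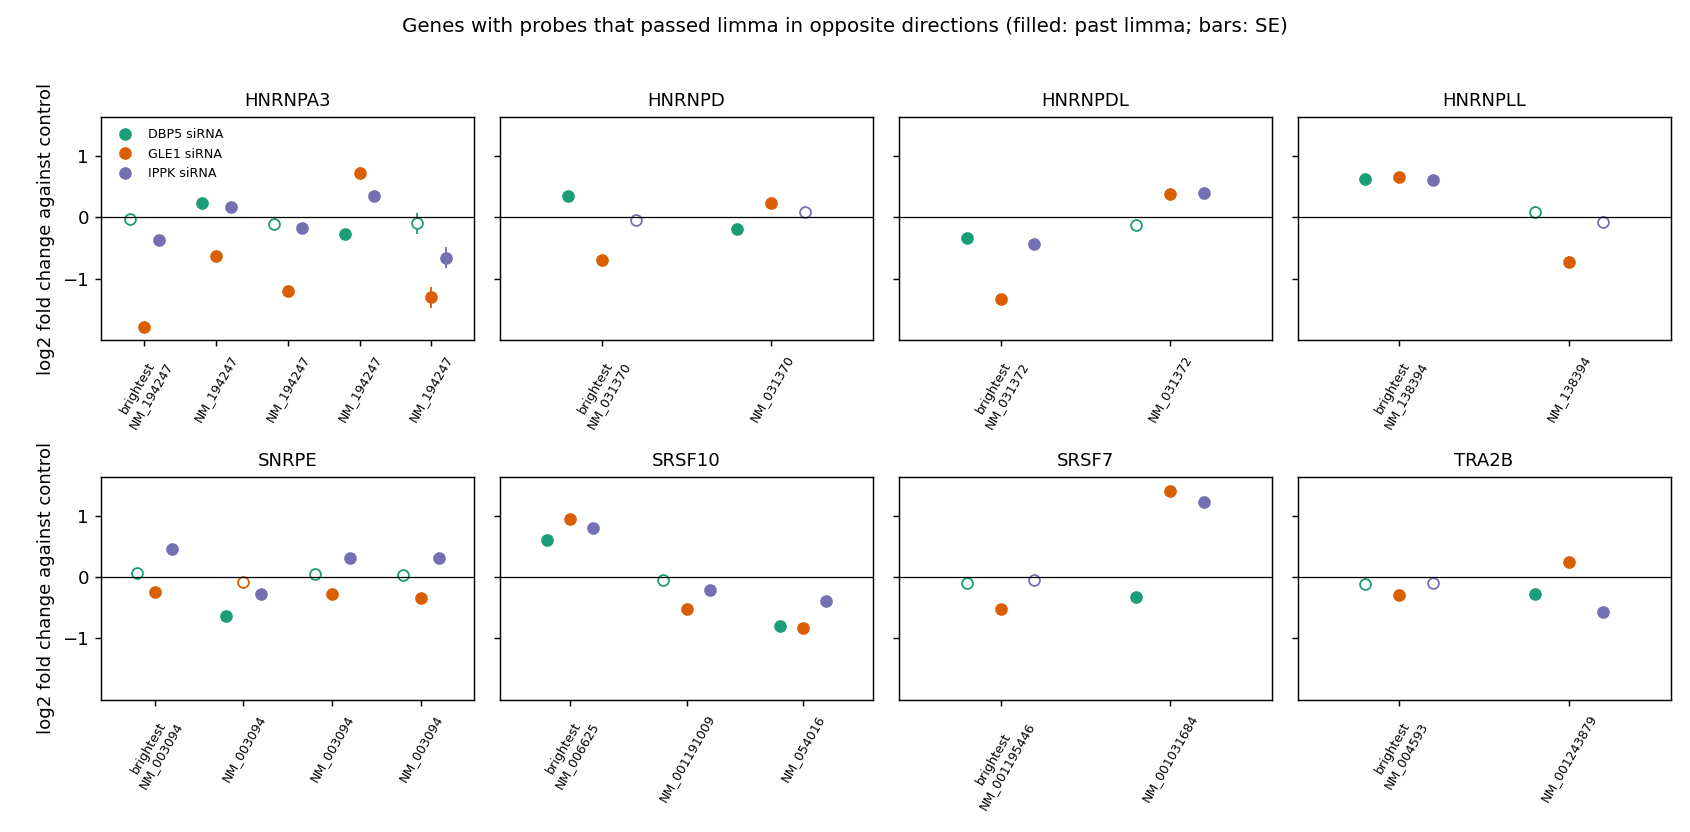
Each panel is 1 of the 8 genes with probes past limma in opposite directions; the horizontal axis gives each probe's transcript accession, the vertical axis the log2 fold change ± SE against control siRNA for each knock-down, and filled points passed the test. SRSF7 lies at -0.52 on its brightest probe and 1.40 on the other under GLE1 knock-down, and SRSF10 at 0.95 and -0.83.

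The other genes of the splicing machinery were taken from lists of 111 genes in all, of which 110 were tested. After GLE1 knock-down 64 were lower and 17 higher (median log2 fold change -0.27), under DBP5 knock-down 35 and 25 (-0.04) and under IPPK knock-down 25 and 25 (-0.00372). These are 58.2% lower and 15.5% higher with GLE1 siRNA, against 31.5% and 30.6% of all genes, whereas the shares with DBP5 siRNA (31.8% and 22.7%, against 27.5% and 26.7%) and with IPPK siRNA (22.7% each, against 28% and 27.3%) were near those of all genes. Among U5 and tri-snRNP proteins 10 of 16 were lower and 2 higher under GLE1 knock-down, with PPIH, a cyclophilin of the tri-snRNP, at log2 -2.07 and PRPF8, the core of the catalytic centre, higher in each knock-down (0.96, 0.72 and 0.62 under DBP5, GLE1 and IPPK knock-down). Of the LSM ring, which binds U6 RNA or decapping substrates, 5 of 8 were lower and 1 higher, from LSM6 (-2.18) to LSM1 (1.56), the subunit that belongs to the decapping ring. LSM1 was higher in every knock-down (1.30 under DBP5 and 0.99 under IPPK). PRP19 complex and spliceosomal ATPase genes were lower in 12 of 17 and higher in 1, U2-associated factors in 7 of 10 and 1 (DNAJC8 -1.42), and U1 and minor spliceosome proteins in 7 of 13 and 2 (PDCD7 -1.63).

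Of SR protein kinases and importers, 4 of 8 were lower and 3 higher under GLE1 knock-down, 3 and 1 with DBP5 siRNA and 5 and 1 with IPPK siRNA (median -0.37), where 28% and 27.3% of all genes were lower and higher. TNPO3, which carries SR proteins into the nucleus, fell under GLE1 (-1.70) and IPPK knock-down (-1.18), CLK2 fell in each (-0.46, -1.31 and -0.37), and CLK4 rose under GLE1 knock-down (1.16). TNPO1, the importer of HNRNPA1, rose under DBP5 (0.71) and IPPK knock-down (1.33). Of the SMN complex and Sm assembly genes, 6 of 12 were lower and 2 higher under GLE1 and 6 and 3 under DBP5 knock-down, with SMN1 (whose copy SMN2 shares its sequence) at -0.84 under DBP5 and -0.77 under GLE1 knock-down. Of 26 other RNA-binding regulators, 13 were lower and 5 higher under GLE1 knock-down, with MBNL2 at 1.497, or 50% and 19.2% against 31.5% and 30.6% of all genes. With DBP5 siRNA 10 were higher and 7 lower, or 38.5% and 26.9% against 26.7% and 27.5%, and RBMX (hnRNP G) was at 1.63.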

How the data were processed

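For each of 4 siRNAs, 3 one-colour Agilent arrays of U2OS cytoplasmic RNA were available, 12 in all on 3 slides, grouped by the labels. The authors deposited the Agilent Feature Extraction (10.7.3.1) output of each array, linear intensity per spot with and without background subtraction, and a table of log2 values that the methods call LOESS normalized. Those deposited log2 values followed the median intensity without subtraction (Pearson's r over the probes of each array was 0.9998 or more, against 0.961 to 0.967 for the subtracted intensity).

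Here, log2 background-subtracted intensities were normalized by cyclic loess between arrays, spots of a probe were averaged, and control spots and outlier spots (169 to 358 per array) were left out. No spot was saturated. Probes were named through RefSeq accessions (26449 of 34127, GRCh38.p14), and no array coordinates were used because the design is of hg19. Promoter windows were read from the RefSeq table of GRCh38.p14. Each gene was represented by its brightest probe and kept if 1 or more siRNAs had that probe well above background on every array. limma 3.58.1 in R 4.3.3 was fitted over all 12 arrays with 1 mean per siRNA, with Benjamini-Hochberg adjustment over 20821 genes in each of 6 contrasts at 0.05. Probes were also fitted one by one, and adjusted p-values of single probes come from that fit. The procedure was tested on simulated data with noise independent between arrays and few genes changed. That test does not cover the correlation between arrays of a slide or the many genes called here. Ratios to control are 2 to the power of the fitted log2 fold change, with the SD over the ratios of the 3 single arrays to the control mean. The number of arrays limits the precision. Members were named where they were on a short list of well-known factors, or were past the test, well above background on all arrays and without overlap with control while changing at least 1.5-fold or most in their family, or had opposed probes. SRSF5, SRSF12, SF3B5, SNRPD2, SNRPD3, HNRNPA1L2, HNRNPCL1 and HNRNPH3, and some genes of the other lists, were named after their values were seen. Members and lists were chosen with earlier results of these data known.

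Replicate number marks the slide in the file headers, and deviations from the group means of same-numbered arrays correlated (r 0.315 to 0.545 in 18 pairs, against -0.333 to -0.0163 in 36 other pairs), so the numbers paired the arrays. The alternatives were other normalizations, background corrections, filters and uses of probes, the authors' values, the replicate block, a two-sided paired test, and each array left out in turn. The methods name such a test for their statistics in general, while their array gene lists came from rank products, which were not used here.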

Additional observations from a re-analysis of the deposited data

Results flagged for a closer look

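The 3 values given here stood out because the change against control had opposite directions in a pair of knock-downs, with the difference between the knock-downs itself past limma. SNRPE was lower than control after GLE1 knock-down and higher after IPPK knock-down, and GLE1 minus IPPK was -0.70 on the log2 scale (-0.6975, limma adjusted p = 2.1e-05). Of its 4 probes, 1 did not show this and was lower after IPPK knock-down. HNRNPA1L2 was likewise lower after GLE1 (log2 -0.26) and higher after IPPK knock-down (0.20), a difference of -0.46 (-0.4582, limma adjusted p = 0.00033), on the brightest probe. Of its 4 other probes none passed in both, as 1 was past the test after GLE1 knock-down alone, 1 after IPPK knock-down alone and 2 in neither. HNRNPD was lower after GLE1 and higher after DBP5 knock-down, and GLE1 minus DBP5 was -1.05 (-1.0453, limma adjusted p = 4.2e-08) on the brightest probe, while its other probe was higher after GLE1 (0.23) and lower after DBP5 knock-down (-0.20).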

How the results depend on the processing

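With the replicate block, the members lower and higher were 20 and 12 after DBP5, 37 and 10 after GLE1 and 22 and 16 after IPPK knock-down (29.5% and 28.1%, 33.1% and 32.6%, and 30.4% and 29.2% of all genes). No named gene past limma in the main fit lost its call with the block. For named genes, here and below, only changes past limma in the main fit were followed, so gained calls were not counted. The paired test, after adjustment, gave, where it called 9.01% to 25.4% of all genes in a direction, 28 lower and 10 higher after GLE1 knock-down, 5 lower and 6 higher after DBP5 knock-down, 11 lower and 14 higher after IPPK knock-down, 16 lower and 4 higher in GLE1 against DBP5, and 4 lower and 4 higher in DBP5 against IPPK. The mean of a gene's probes gave 11 members higher in GLE1 against IPPK. Over single arrays left out, members lower and higher ranged from 19 to 20 and 12 to 13 after DBP5, 36 to 37 and 10 to 12 after GLE1, 16 to 21 and 14 to 17 after IPPK knock-down, 24 to 30 and 7 to 8 in GLE1 against DBP5, 38 to 40 and 5 to 8 in GLE1 against IPPK, and 16 to 21 and 5 to 10 in DBP5 against IPPK. Of the values of named genes under alternatives other than single probes and left-out arrays, 897 kept direction and side of the threshold, 46 kept direction and lost the threshold and 7 reversed, all 7 with the mean of a gene's probes: HNRNPK (log2 -0.0025, -0.12 and -0.0643 for DBP5, for GLE1 and for IPPK), SRSF10 (-0.0794 after DBP5 and -0.14 after GLE1), HNRNPLL (-0.0373 after GLE1) and SRSF7 (0.44 after GLE1). Single probes other than the brightest reversed HNRNPD (-0.20 after DBP5, 0.23 after GLE1), HNRNPK (-0.35, -0.52 and -0.38), SRSF10 (-0.79 and -0.0436 after DBP5, -0.83 and -0.53 after GLE1, -0.39 and -0.21 after IPPK), HNRNPA3 (0.72 after GLE1, 0.17 and 0.35 after IPPK), HNRNPDL (0.38 after GLE1, 0.40 after IPPK), HNRNPLL (-0.73 after GLE1, -0.0798 after IPPK), SRSF6 (0.10 after GLE1), SRSF7 (1.40 after GLE1), TRA2B (0.24 after GLE1) and SNRPE (-0.28 after IPPK). The cause of the reversals was not tested. Of the values of family medians, 146 counted as the same and 4 as moved under alternatives other than left-out arrays. With single arrays left out, 178 counted as the same and 2 as moved. Signal over background kept 1 member, SRSF12, from being measured.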
